A study of Mus musculus with 6 samples.

Results

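The Slc25 genes encode the mitochondrial carrier family, and 46 of them were measured here in heart ventricles of mice with muscular dystrophy, among 30142 genes in all. The 46 are the transcript clusters of the array whose platform annotation gives a single symbol of the form Slc25a followed by a number, and each of them had 1 row. The samples were ventricles of 3 male mice fed finerenone, a non-steroidal antagonist of the mineralocorticoid receptor, and of 3 male mice left untreated, with 1 Affymetrix array per mouse. Finerenone was given in the diet at 100 ppm, starting at an age of 4 weeks, and the untreated group had plain chow of that type. Tissue was taken from all 6 animals when 20 weeks old. All were "Het" mice on a C57BL/10 background, which carry the mdx loss of dystrophin and a single working copy of utrophin (utrn+/-; mdx), so no group here shows what the disease itself does to these genes.

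Carriers of this family sit in the inner mitochondrial membrane, with a few in the outer membrane or in peroxisomes, and exchange nucleotides, phosphate, organic acids, amino acids, acylcarnitines and cofactors between cytosol and matrix. They are encoded in the nucleus, made in the cytosol and imported through the outer membrane translocase, the small Tim chaperones and the TIM22 complex. In a beating ventricle they export ATP, supply phosphate, bring in acylcarnitines for oxidation and run the malate-aspartate shuttle.

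Values are log2 signals per transcript cluster, and a difference is finerenone minus untreated on that scale. Signals of different genes come from different probes and are not set against each other. Negative control probes, a gauge of background, had medians from 5.04 to 5.33 on the 6 arrays. Signal lay above the median of its array on all 6 arrays for 35 of the 46 carriers, on some arrays for 1 (Slc25a14) and on no array for 10. The median over all genes was itself lower than this gauge on every array, at 4.91 to 4.98. Most genes therefore lay below it on any array, and it is not a limit of detection. The 95th percentile of the negative control probes, a stricter gauge, ran from 8.35 to 8.73. Only 12 of the 46 carriers lay above it on all 6 arrays. The tissue showed heart muscle markers, with Myh6, the alpha myosin heavy chain, between 19.60 and 19.65. Untreated replicate 1 stood apart: albumin (Alb) measured 16.69 there and 4.10 to 4.38 on the other 5 arrays. The mean of 4 hepatocyte markers was 9.39 in that array against 4.16 to 4.29 elsewhere, and the mean of 7 endothelial markers was 12.87 against 11.85 to 12.34. The main comparisons are therefore also given without that array. Marker lists of other cells had unequal means as well. All 7 endothelial markers had lower means in finerenone hearts (median -0.43), and without untreated replicate 1 there were 5 lower and 2 higher (median -0.21). Of 6 smooth muscle and pericyte markers 5 were lower (median -0.31), and without that array 4 were lower and 2 higher (median -0.19). Their mean level was also highest in that array, at 10.49 against 9.80 to 10.17 on the others. All 7 macrophage markers had higher means with and without it (median 0.31 and 0.27). The part of these cells in the carrier signals was not tested. In whole ventricle, fewer cells of a type and less RNA per cell cannot be told apart.

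Most carriers measured nearly the same signal in both groups, and the widest difference was in Slc25a33, a carrier of pyrimidine nucleotides. P-values and intervals set a difference against the spread between these mice, which limma combines with a spread estimated from all genes. In limma 0 of the 46 carriers passed an adjusted p of 0.05, as did 0 of all genes (0%), and the smallest adjusted p among carriers was 0.597. Higher means in finerenone hearts were seen for 24 carriers (52.2%, beside 58.2% of all genes) and lower means for 22. Their median difference was 0.02, beside 0.03 over all genes. At an unadjusted p below 0.05 there were 3 carriers, all higher (6.52% of 46, where 5.69% of all genes were higher and 2.12% lower at this level). The 3 were Slc25a33, Slc25a17 and Slc25a43. Without untreated replicate 1 only Slc25a33 remained below that level, where 6.43% of all genes were. The 95% interval of the difference lay within ±0.5, a 1.41-fold change either way, for 33 of the 46 carriers. Some of them, such as Slc25a48 and Slc25a54, lay below the negative control median on every array, and Slc25a4 lay near the top of the scale. For such genes a narrow interval does not show that the RNA was unchanged. The share of all genes with an interval this narrow was not counted.

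**Figure D1:**
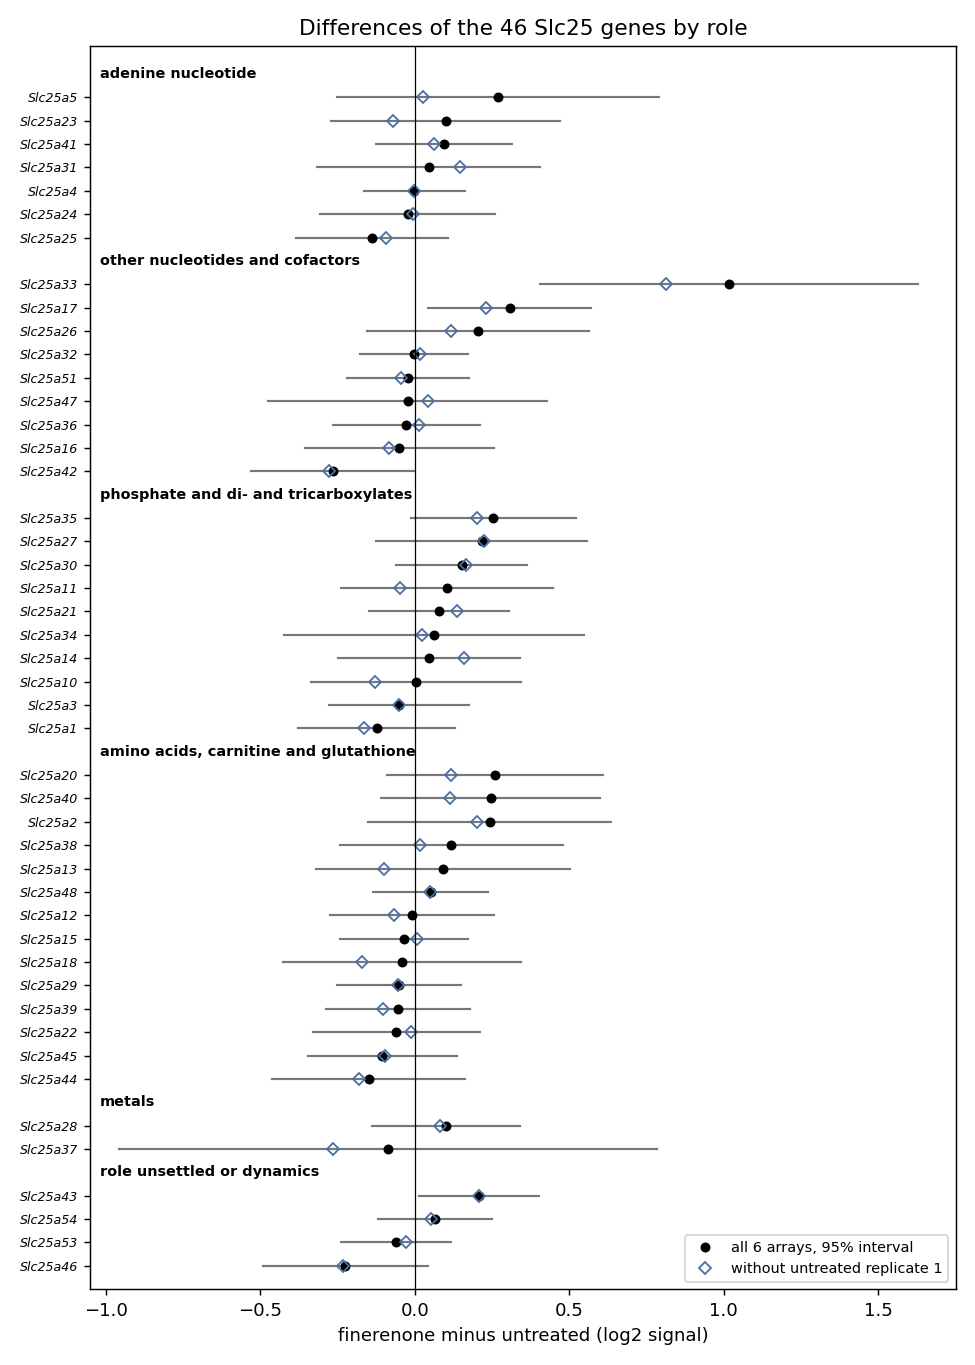
Difference in log2 signal, finerenone minus untreated, for the 46 Slc25 genes grouped by what they carry, with filled points and 95% intervals from limma over all 6 arrays and open diamonds for the fit without untreated replicate 1. Slc25a33 lies apart at 1.02, and all other points lie between -0.26 and 0.31.

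Slc25a33 measured 8.29, 8.09 and 8.86 in the 3 finerenone hearts, against 6.99, 7.66 and 7.55 in the 3 untreated hearts. All finerenone values lay above all untreated ones, and untreated replicate 1 was the lowest. The signal was above the 95th percentile of the negative controls on 1 array only, finerenone replicate 3. Group means (± SD, n = 3) were 8.41 ± 0.40 with finerenone against 7.40 ± 0.36 untreated, a difference of 1.02 ± 0.25 (SE) or 2.02-fold, with a 95% interval of 0.41 to 1.63. Without untreated replicate 1 it was 0.81 or 1.76-fold, and with each array left out in turn it stayed between 0.80 and 1.18. The limma adjusted p was 0.597. An exact two-sided permutation test gave p = 0.1, the smallest possible with 3 against 3. Every gene whose groups do not overlap gets this value, which held for 8.17% of all genes (higher) and 4.18% (lower). The test therefore adds nothing beyond the separation of the groups.

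Slc25a36, which carries the same class of pyrimidine nucleotides, measured 8.92, 8.65 and 8.78 in finerenone hearts, against 8.89, 8.73 and 8.81 in untreated hearts. The groups overlapped fully, with a difference of -0.03 ± 0.10 (SE) and a 95% interval of -0.26 to 0.21. Whether the responses of Slc25a33 and Slc25a36 differ from each other was not tested.

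Slc25a17, the carrier of coenzyme A, FAD and NAD in the membrane of peroxisomes, measured 9.19, 9.11 and 9.26 in finerenone hearts, against 8.72, 8.84 and 9.07 in untreated hearts. The groups did not overlap, and the difference was 0.31 ± 0.11 (SE; limma adjusted p = 0.607). It was 0.23 without untreated replicate 1 and ran up to 0.40 without untreated replicate 3, the highest untreated value. Slc25a42, which brings coenzyme A into mitochondria, differed in the other direction, with 7.12, 7.47 and 7.34 in finerenone hearts against 7.54, 7.52 and 7.65 in untreated hearts. Here too the groups did not overlap. Its difference was -0.26 ± 0.11 (limma adjusted p = 0.640), the lowest of the 46, and -0.28 without untreated replicate 1. The interval of -0.53 to 0.00 reached zero, and leaving out single arrays moved the difference between -0.34 and -0.17, the second without finerenone replicate 1.

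The sequence before the start of these 4 genes is shown because they are the pair of pyrimidine carriers and the coenzyme A carriers with the widest differences in either direction. Each is the stretch of 250 bases upstream of the start in RefSeq's table for GRCm38.p6, written 5′ to 3′ along the gene, and all 4 genes lie on the minus strand. The windows are chr4:149774268-149774517 for Slc25a33, chr9:97111042-97111291 for Slc25a36, chr15:81360766-81361015 for Slc25a17 and chr8:70212282-70212531 for Slc25a42. Capitals mark matches, on either strand, to the motifs named in the next paragraph.
Slc25a33: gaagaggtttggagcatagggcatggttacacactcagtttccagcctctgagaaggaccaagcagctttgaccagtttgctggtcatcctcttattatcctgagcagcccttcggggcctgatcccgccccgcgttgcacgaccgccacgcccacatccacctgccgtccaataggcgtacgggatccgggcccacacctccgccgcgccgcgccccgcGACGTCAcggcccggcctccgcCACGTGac
Slc25a36: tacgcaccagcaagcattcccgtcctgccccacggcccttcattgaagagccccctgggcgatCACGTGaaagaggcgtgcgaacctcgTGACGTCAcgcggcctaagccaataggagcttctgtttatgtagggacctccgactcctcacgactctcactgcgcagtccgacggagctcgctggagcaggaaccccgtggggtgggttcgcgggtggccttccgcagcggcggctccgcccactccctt
Slc25a17: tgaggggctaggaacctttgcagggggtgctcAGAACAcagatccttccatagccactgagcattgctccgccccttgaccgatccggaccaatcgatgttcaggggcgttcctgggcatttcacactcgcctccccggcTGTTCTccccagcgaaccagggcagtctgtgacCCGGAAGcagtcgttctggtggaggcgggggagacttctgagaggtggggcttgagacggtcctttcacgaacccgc
Slc25a42: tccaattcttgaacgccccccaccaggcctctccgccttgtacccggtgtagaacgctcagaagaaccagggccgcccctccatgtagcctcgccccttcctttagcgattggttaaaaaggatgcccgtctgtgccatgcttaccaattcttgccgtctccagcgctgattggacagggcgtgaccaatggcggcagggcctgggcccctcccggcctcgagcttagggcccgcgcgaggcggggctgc

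Base composition was alike in the 4 windows, with 64.4% G and C in Slc25a33, 64.4% in Slc25a36, 61.2% in Slc25a17 and 63.6% in Slc25a42. The median was 57.4% over the 46 windows of the 36 carriers searched, some of which have several, and 52.4% over all 32851 windows searched. No window on chromosome 18, where Slc25a2 and Slc25a46 lie, was searched. Corticosteroid receptors bind repeats of the half-site AGAACA. That half-site was found in Slc25a17, 218 and 110 bases before the start, and in 4 of the 46 carrier windows (8.70%), beside 16.1% of all windows. The motif CCGGAAG of ETS factors such as Gabpa, a regulator of respiratory genes, was found in Slc25a17 and in 6 of 46 carrier windows (13.0%), beside 6.91% of all windows. The NRF1 motif GCGCANGCG was found in 2 carrier windows (4.35%, beside 5.16%), the estrogen-related receptor motif TNAAGGTCA in 0 (1.14% of all windows) and the YY1 motif AAGATGGCG in 0 (0.606%). After the sequences had been read, an E-box (CACGTG) and a cyclic AMP response element (GACGTCA) were added to the search. Both were found in Slc25a33 and Slc25a36, with the E-box 8 and 187 bases before the start, and they occur in 6.02% and 2.78% of all windows. Of the 46 carrier windows 8 hold that E-box (17.4%) and 4 the cyclic AMP element (8.70%). Both counts include the Slc25a33 and Slc25a36 windows, in which the motifs had been read beforehand, so no excess is drawn from them. In Slc25a36 the cyclic AMP element is read on both strands at overlapping positions. The Slc25a42 window held none of the 7 motifs. Matches of letters do not show binding, and no binding was measured here.

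**Figure D2:**
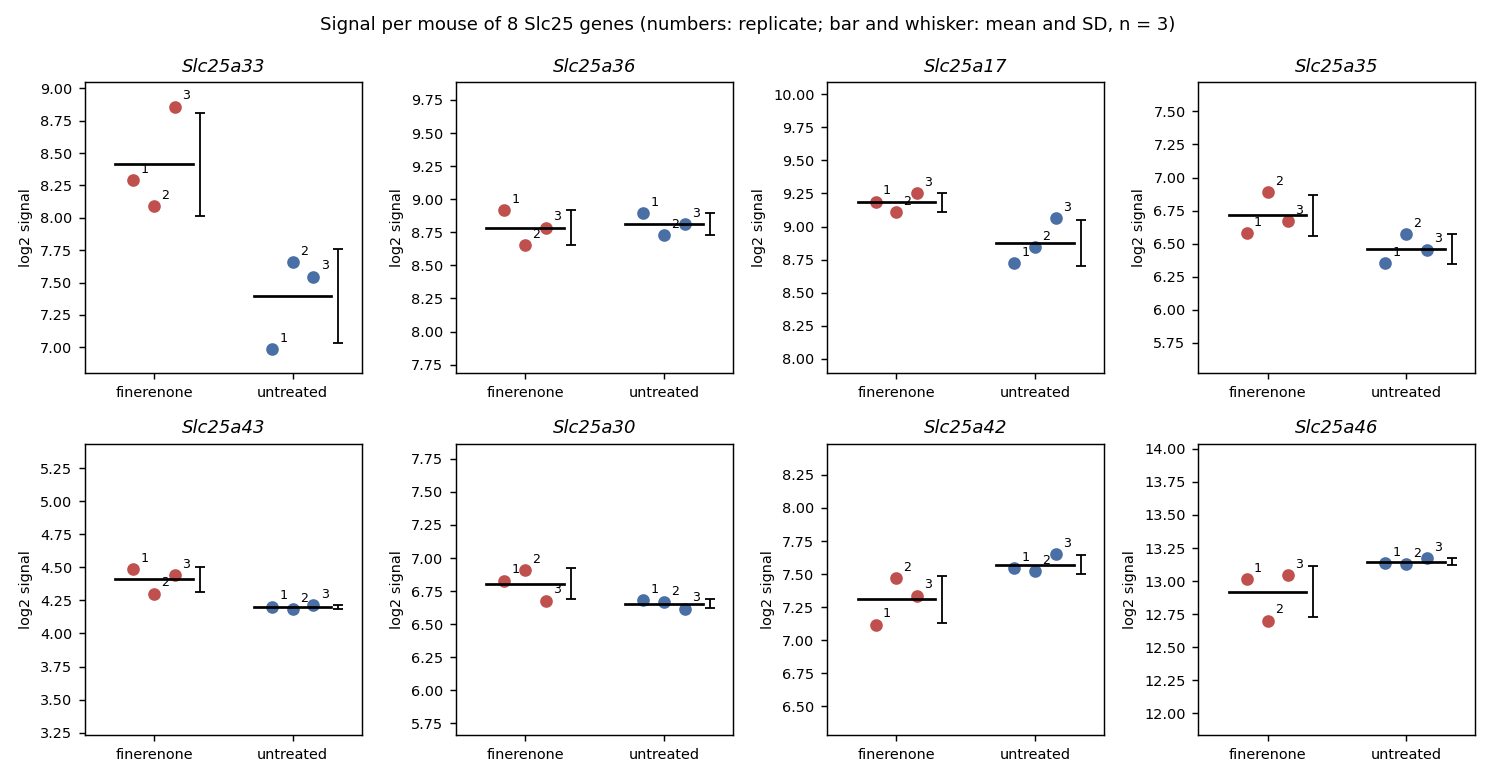
Log2 signal per mouse of 8 Slc25 genes, finerenone left and untreated right in each panel, with replicate numbers, the mean (bar) and the SD (whisker, n = 3). The groups do not overlap for Slc25a33, Slc25a17, Slc25a35 and Slc25a43 (higher in finerenone hearts) or for Slc25a42 and Slc25a46 (lower), and they overlap narrowly for Slc25a30 and fully for Slc25a36.

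Groups that did not overlap were seen for 6 of the 46 carriers. In 4 the finerenone values were the higher ones (8.70%, beside 8.17% of all genes), and in 2 they were the lower ones (4.35%, beside 4.18%). The carriers not yet described among them, named for this after their values were seen, were Slc25a35, Slc25a43 and Slc25a46. Slc25a35, whose substrate is not settled, measured 6.58, 6.89 and 6.67 in finerenone hearts, against 6.35, 6.57 and 6.46 in untreated hearts, a difference of 0.25 ± 0.11 (SE), and 0.17 without finerenone replicate 2. Slc25a43, also without a settled substrate, measured 4.48, 4.30 and 4.44 in finerenone hearts, against 4.20, 4.18 and 4.22 in untreated hearts. Its difference was 0.21 ± 0.08, and its signal lay below the median of the negative controls on every array. Slc25a46, an outer membrane protein of mitochondrial dynamics, measured 13.02, 12.70 and 13.04 in finerenone hearts, against 13.14, 13.13 and 13.18 in untreated hearts. The difference was -0.23 ± 0.11, and it was -0.12 without finerenone replicate 2, which was the lowest array, and -0.35 after quantile normalization. None of the 3 passed in limma (adjusted p = 0.651, 0.620 and 0.682).

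The adenine nucleotide carriers comprised 7 genes, of which 4 had higher and 3 lower means in finerenone hearts and 0 passed in limma (median 0.04). Slc25a4, the ADP/ATP carrier of heart and skeletal muscle, measured 17.99 to 18.00 on all 6 arrays, and the groups were the same to that precision. Its interval was -0.17 to 0.16. The SDs within groups were 0.0016 with finerenone and 0.00015 untreated, so that width comes mostly from the spread that limma takes from all genes. The 402 genes with a mean signal from 17 to 20 had a median SD within groups of 0.0965, against 0.250 for 685 genes from 14 to 17, so spread was generally small near the top of the scale. How far a signal at this level can follow a change in RNA was not tested.

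Slc25a5, the ADP/ATP carrier found in most tissues, measured 16.84, 16.81 and 16.82 in finerenone hearts, against 16.07, 16.65 and 16.95 in untreated hearts. The finerenone values were close together and lay inside the untreated range. The difference of 0.27 ± 0.22 (SE) became 0.03 without untreated replicate 1, 0.47 without untreated replicate 3 and 0.14 after quantile normalization. Slc25a25, a carrier of ATP-magnesium and phosphate that calcium regulates, measured 6.21, 5.92 and 6.06 in finerenone hearts, against 6.29, 6.12 and 6.19 in untreated hearts, a difference of -0.14 ± 0.10. Its paralogue Slc25a23 differed by 0.10 with all arrays and by -0.07 without untreated replicate 1, and Slc25a24 by -0.02. Slc25a31 (the carrier of the germ line) and Slc25a41 lay below the negative control median on every array.

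Among the 9 carriers of other nucleotides and cofactors, 3 had higher and 6 lower means and 0 passed in limma (median -0.02). Without untreated replicate 1 the counts turned to 6 higher and 3 lower (median 0.016). Apart from the 4 described above, Slc25a51, which brings NAD into mitochondria, measured 8.81, 8.90 and 8.80 in finerenone hearts, against 8.81, 8.81 and 8.95 in untreated hearts. Its difference was -0.02 ± 0.08 (SE), with an interval of -0.22 to 0.18. Slc25a26, the S-adenosylmethionine carrier, differed by 0.20 with all arrays and by 0.12 without untreated replicate 1. Slc25a32, which serves folate and FAD, differed by close to zero with an interval of -0.18 to 0.17. Slc25a47, a carrier of liver, measured 5.78 in untreated replicate 1, inside the 5.27 to 5.87 of all arrays.

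Carriers of phosphate and of di- and tricarboxylates, together with related genes, comprised 10 members, with 8 higher and 2 lower means, a median of 0.07 and 0 past the threshold in limma. The counts were 6 higher and 4 lower without untreated replicate 1. Slc25a3, which supplies phosphate for ATP synthesis and copper for cytochrome oxidase, measured 10.93, 10.78 and 11.03 in finerenone hearts, against 10.96, 10.90 and 11.03 in untreated hearts, a difference of -0.05 ± 0.09 (SE). Slc25a11, the oxoglutarate-malate carrier of the malate-aspartate shuttle, measured 15.72, 15.64 and 15.78 in finerenone hearts, against 15.30, 15.74 and 15.79 in untreated hearts. Its difference was 0.10 ± 0.14 with all arrays, -0.05 without untreated replicate 1 and -0.07 after quantile normalization. Slc25a1, the citrate carrier, differed by -0.12 ± 0.11. Of the members related in sequence to uncoupling proteins, Slc25a27 differed by 0.22 and Slc25a30 by 0.15. Without finerenone replicate 3 Slc25a27 differed by 0.12, and without untreated replicate 3 by 0.11. Slc25a14 differed by 0.05 with all arrays and by 0.16 without untreated replicate 1.

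Of 14 carriers of amino acids, carnitine and glutathione, 6 had higher and 8 lower means, with a median of -0.02 and 0 past the threshold in limma. Slc25a20, which takes acylcarnitines into the matrix for oxidation, measured 14.68, 14.70 and 14.71 in finerenone hearts, against 14.15, 14.44 and 14.72 in untreated hearts. The finerenone values were tight and lay inside the wider untreated range. Its difference was 0.26 ± 0.15 (SE) and 0.12 without untreated replicate 1, 0.40 without untreated replicate 3 and 0.11 after quantile normalization. Slc25a12, the aspartate-glutamate carrier of heart, measured 13.99, 13.76 and 14.06 in finerenone hearts, against 13.83, 14.003 and 14.01 in untreated hearts, a difference of -0.01 ± 0.11. Its paralogue Slc25a13 measured 12.69, 12.53 and 12.71 in finerenone hearts, against 12.17, 12.72 and 12.76 in untreated hearts. The difference was 0.09 ± 0.17, and -0.10 without untreated replicate 1. Of the glutathione carriers, Slc25a40 differed by 0.25 with all arrays and by 0.11 without untreated replicate 1, and Slc25a39 differed by -0.05 and -0.10. The branched-chain amino acid carrier Slc25a44 differed by -0.15 ± 0.13, and by -0.05 without finerenone replicate 3. Slc25a48, below the negative control median on every array, measured 3.31 to 3.32 in finerenone and 3.19 to 3.35 in untreated hearts. Slc25a54, likewise below it and without a settled role, measured 3.52 to 3.65 in finerenone and 3.51 to 3.57 in untreated hearts.

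Untreated replicate 1 was the array with the lowest signal for 15 of the 46 carriers (32.6%), while it was lowest for 23.5% of all genes. Of the 8 carriers with a mean signal of at least 10, it was lowest in 4 (Slc25a5, Slc25a11, Slc25a13 and Slc25a20). Finerenone replicate 2 was lowest in the other 4. Among all 3338 genes at that signal untreated replicate 1 was lowest in 42.5%. For these 8 carriers its median deviation from the mean of the 6 arrays was -0.24, and for the 3338 genes it was -0.14. Over the whole family, 8 carriers turned the sign of their difference when that array was left out. The part of the hepatocyte and endothelial signal of that array in these values was not tested.

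**Figure D3:**
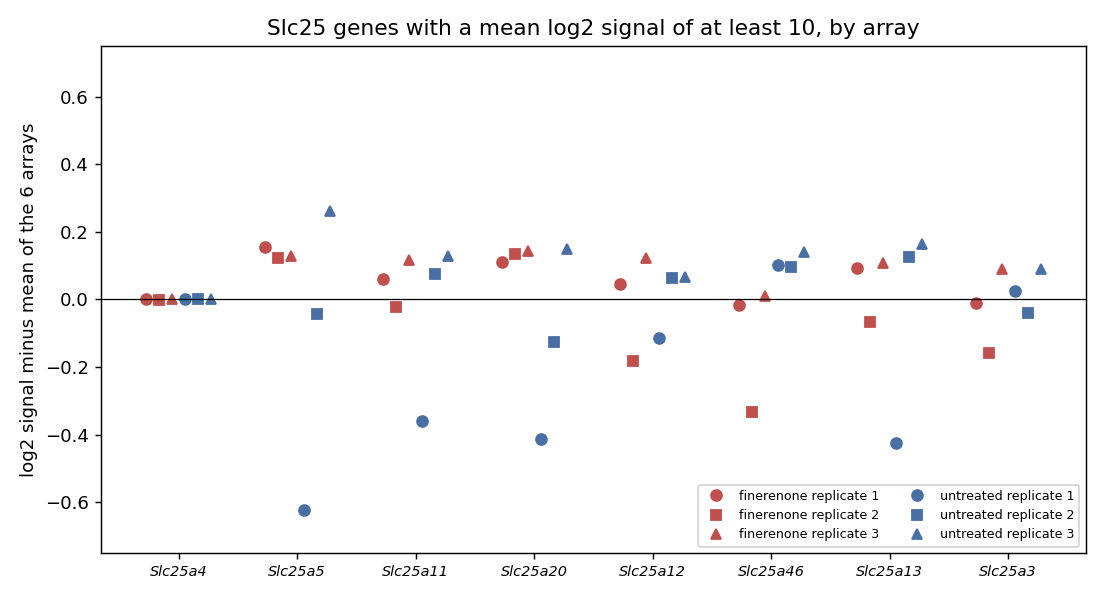
Log2 signal minus the mean of the 6 arrays for the 8 Slc25 genes with a mean signal of at least 10, with finerenone arrays in red to the left of untreated arrays in blue and the marker shape giving the replicate. Untreated replicate 1 lies lowest for Slc25a5, Slc25a11, Slc25a20 and Slc25a13, finerenone replicate 2 for Slc25a12, Slc25a46, Slc25a3 and, by a margin too small to see, Slc25a4.

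The metal carriers are the mitoferrins, which bring iron into mitochondria for heme and iron-sulfur clusters. Slc25a28 (mitoferrin 2), the form of most tissues, measured 7.28, 7.11 and 7.09 in finerenone hearts, against 7.02, 7.19 and 6.96 in untreated hearts, a difference of 0.10 ± 0.10 (SE). Slc25a37 (mitoferrin 1), the form of red cell precursors, measured 8.37, 7.93 and 7.43 in finerenone hearts, against 7.65, 7.64 and 8.72 in untreated hearts. Its spread within groups was the widest of the family, with SDs of 0.47 and 0.62, and the difference was -0.09 ± 0.36. Leaving out each array in turn moved it between -0.32 and 0.27. Alas2, the heme synthesis enzyme of red cell precursors, measured 12.58, 11.73 and 10.52 in finerenone hearts, against 12.05, 11.18 and 13.23 in untreated hearts. Finerenone replicate 1 and untreated replicate 3 were the highest arrays for both Alas2 and Slc25a37. The other erythroid markers measured were dim, with Slc4a1 from 4.72 to 5.13 and Epb42 from 3.85 to 4.07, and the mean of the 3 markers ran from 6.37 to 7.19 in finerenone hearts and from 6.70 to 7.40 in untreated hearts. The part of such cells in the Slc25a37 signal was not tested.

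**Figure D4:**
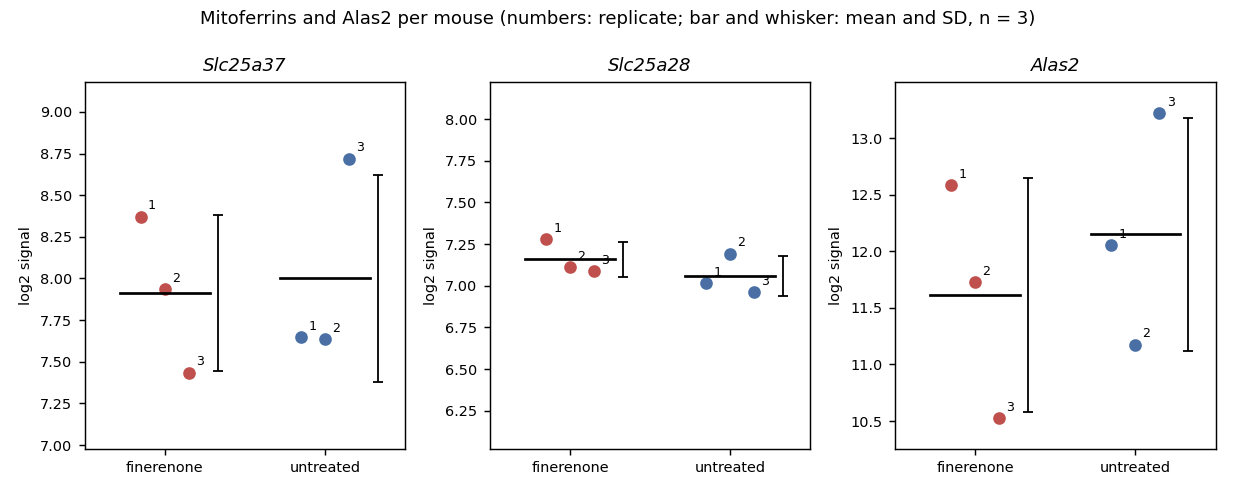
Log2 signal per mouse of Slc25a37 (mitoferrin 1), Slc25a28 (mitoferrin 2) and the erythroid gene Alas2, finerenone left and untreated right, with replicate numbers, the mean (bar) and the SD (whisker, n = 3). Finerenone replicate 1 and untreated replicate 3 are highest for both Slc25a37 and Alas2, and Slc25a28 stays between 6.96 and 7.28.

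Some proteins of the family carry other names, and 4 of 5 listed were measured (Ucp2 was not analysed here). In limma 0 of the 4 passed. Mtch2, an outer membrane protein that inserts other proteins there, measured 12.26, 12.19 and 12.26 in finerenone hearts, against 11.98, 11.97 and 11.87 in untreated hearts. The groups did not overlap and each was tight, with a difference of 0.30 ± 0.08 (SE; limma adjusted p = 0.597). The difference was 0.31 without untreated replicate 1, and ran from 0.19 to 0.31 under the other settings that kept all arrays. Mtch1 differed by 0.24 ± 0.18 and by 0.05 without untreated replicate 1. Ucp3, the uncoupling protein of muscle, differed by -0.59 ± 0.61. It differed by -0.20 without untreated replicate 1, by -0.05 without finerenone replicate 1 and by -1.10 without untreated replicate 3. Ucp1, that of brown fat, lay between 3.58 and 3.87 on all arrays.

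Of 12 measured genes for the import of carriers, 9 had higher and 3 lower means in finerenone hearts, with a median of 0.30 and 0 past the threshold in limma. The higher ones made up 75%, beside 58.2% of all genes, of which 18652 had a mean signal of only 3 to 6. The 3338 genes with a mean of at least 10, among them Timm8b and Tomm22, were not level either. Their median deviations from the mean of the arrays were 0.11, 0.08 and 0.0008 in finerenone and -0.14, 0.0005 and -0.04 in untreated hearts. The share of higher means among such genes was not counted. Without untreated replicate 1 the median of the import genes was 0.15, with 8 higher and 4 lower. The smallest p-values were those of 3 small Tim chaperones. Timm8a1 measured 9.71, 9.91 and 10.00 in finerenone hearts, against 9.01, 9.43 and 9.40 in untreated hearts. Timm8b measured 10.80, 10.68 and 10.41 in finerenone hearts, against 9.83, 10.35 and 10.00 in untreated hearts. In both the groups did not overlap and untreated replicate 1 was lowest. Their differences were 0.60 ± 0.14 and 0.57 ± 0.17 (SE; limma adjusted p = 0.597 for both), and 0.46 and 0.45 without that array. With the mean of the gene's rows in place of the brightest row, Timm8a1 differed by 0.48. Timm13, another of these chaperones, differed by 0.40 ± 0.14. The widest difference of the list was that of Timm10, at 0.70 ± 0.37, with 0.30 when that array was left out. Timm22, the channel through which carriers enter the inner membrane, differed by 0.22 with all arrays and by -0.09 without untreated replicate 1. Tomm70a, the outer membrane receptor for carriers, differed by -0.01.

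**Figure D5:**
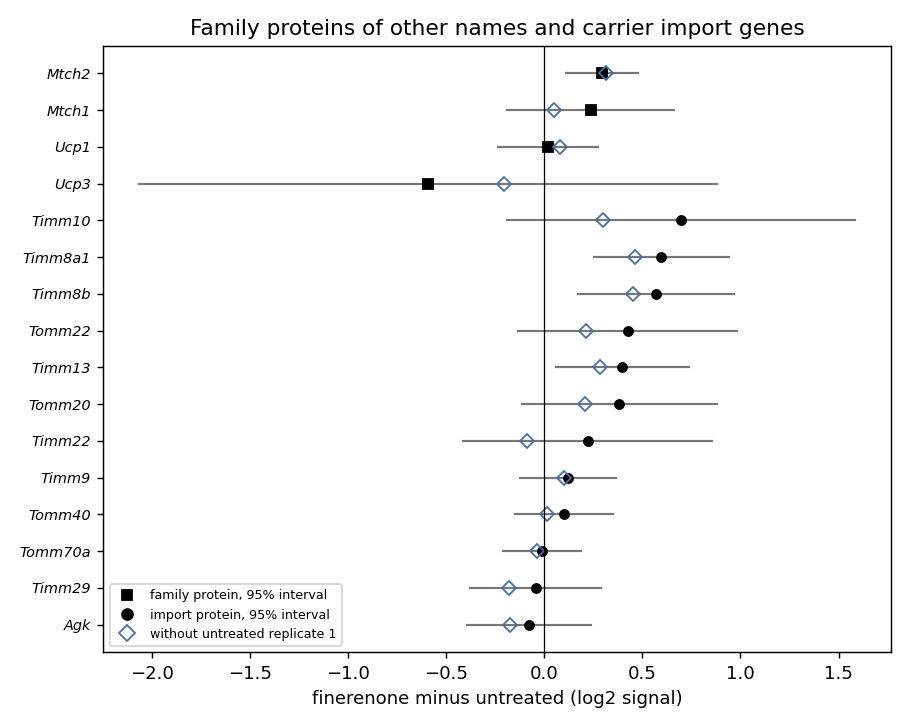
Difference in log2 signal, finerenone minus untreated, for 4 family proteins with other names (squares) and 12 import genes (circles), with 95% intervals from limma over all 6 arrays and open diamonds for the fit without untreated replicate 1. Most import genes move toward 0 when that array is left out, and Mtch2 stays at 0.30 and 0.31.

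The other lists around the carriers gave smaller medians. Their counts stand beside 58.2% of all genes with higher means in finerenone hearts, with the same limit for bright genes. Of 14 other mitochondrial transporters 11 had higher and 3 lower means (median 0.11, and 0.06 without untreated replicate 1). Sfxn1, the serine carrier, had the smallest p among them, with 7.44, 7.49 and 7.39 in finerenone hearts against 7.17, 7.32 and 7.06 in untreated hearts and a difference of 0.25 ± 0.09 (SE). Of the calcium uniporter's parts, Micu3 differed by 0.17, Smdt1 by 0.40, Mcu by 0.15 and Micu2 by 0.03. Without untreated replicate 1 Micu3 differed by 0.17, Smdt1 by 0.22, Mcu by 0.13 and Micu2 by -0.11. Of 14 enzymes that work with carriers 5 had higher and 9 lower means (median -0.05). Without untreated replicate 1 there were 2 higher and 12 lower (median -0.08). Cpt1b, which makes the acylcarnitines that Slc25a20 imports, measured 14.70, 14.65 and 14.80 in finerenone hearts, against 14.97, 14.90 and 15.21 in untreated hearts, a difference of -0.31 ± 0.11. Crat, the carnitine acetyltransferase, differed by -0.19 ± 0.08. After quantile normalization these were -0.47 and -0.30. Cpt1a differed by -0.46 ± 0.22, and by -0.26 without finerenone replicate 1. Of 9 regulators of mitochondrial genes 2 had higher and 7 lower means (median -0.11, and -0.14 without untreated replicate 1), with Pprc1 at -0.20 ± 0.08, Gabpa at -0.14 and the coactivator Ppargc1a at 0.34 ± 0.25, which ran from 0.09 without finerenone replicate 3 to 0.61 without finerenone replicate 2. Gabpa was at -0.09 without untreated replicate 1. In limma 0 genes of these 3 lists passed.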

How the data were processed

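RNA from the ventricles of 6 mice was hybridised to Affymetrix arrays, 3 for each group. The sample titles gave the group and the replicate number. According to the submitters' processing notes, the authors used RMA with Affymetrix programs (Transcriptome Analysis Console, Expression Console), and what they deposited is a log2 value for each probe set. Neither software versions nor the build of the annotation nor any later transformation is given in the sources used here. Of 72688 deposited rows, 65956 were transcript clusters. Clusters with a single platform symbol (30604) were named, symbols were updated by Entrez identifier to RefSeq (GRCm38.p6), and the row with the highest mean was kept per gene, which left 30142 genes.

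Group differences were tested two-sided, with no covariate, by lmFit and eBayes of limma 3.58.1 (R 4.3.3) and Benjamini-Hochberg adjustment over all 30142 genes at 0.05, and the fit was tested on simulated data. Intervals are 95% intervals of that fit. No filter on dim genes was applied. The number of arrays limits the precision. Alternatives were other normalizations (quantile, median centring, cyclic loess), filters on dim genes, the mean of a gene's rows, weights per array, all clusters, a prior that is trended and robust, a block for the replicate number, and each array left out in turn.

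The members and gene lists were chosen with earlier results of these data known. Values per mouse are given for carriers at unadjusted p below 0.05, the 3 with the highest mean signal and a listed set of 14. Of these, Slc25a4 is given by its range, as are the 2 carriers with the lowest mean signal (Slc25a48 and Slc25a54). The others are given by ranges and counts. Of each related list up to 3 genes with the smallest p are named. Slc25a35 and Slc25a46, single differences of other carriers, Ucp1, Timm10, Timm22, Tomm70a, Mcu and Micu2 were added after their values were seen.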

Additional observations from a re-analysis of the deposited data

How the results depend on the processing

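Under all 16 alternatives 0 of the 46 carriers passed the limma threshold. The Slc25 median difference was 0.02 and became -0.012 after quantile normalization, -0.0014 among genes with a mean of at least 6, -0.00198 among those at or above the median cluster and 0.0008 after cyclic loess, and leave-one-out values lay between 0.01 and 0.05. After the filter at 6, 15 of 31 carriers had higher means, against 24 of 46 with no filter. The number of carriers at an unadjusted p below 0.05 was 3, and ran from 1 (without untreated replicate 1 or finerenone replicate 3) to 5 (without finerenone replicate 2). With all arrays kept, 4 carriers took the other sign: Slc25a11 (-0.067) and Slc25a13 (-0.023) after quantile normalization, Slc25a13 (-0.0025) after cyclic loess, Slc25a10 (-0.00839) after median centring and (-0.035) with array weights, and Slc25a47 (0.0028) with array weights. With single arrays left out, differences crossed 0 in Slc25a3 (-0.11 to 0.016), Slc25a10 (-0.13 to 0.084), Slc25a11 (-0.049 to 0.19), Slc25a12 (-0.073 to 0.0799), Slc25a13 (-0.10 to 0.19), Slc25a14 (-0.041 to 0.16), Slc25a15 (-0.10 to 0.0077), Slc25a16 (-0.15 to 0.0496), Slc25a18 (-0.17 to 0.13), Slc25a22 (-0.12 to 0.0305), Slc25a23 (-0.0698 to 0.20), Slc25a24 (-0.11 to 0.056), Slc25a29 (-0.095 to 0.0021), Slc25a31 (-0.073 to 0.15), Slc25a32 (-0.0304 to 0.016), Slc25a34 (-0.16 to 0.24), Slc25a36 (-0.093 to 0.039), Slc25a37 (-0.32 to 0.27), Slc25a39 (-0.12 to 0.0056), Slc25a47 (-0.15 to 0.16) and Slc25a51 (-0.054 to 0.025). In all, 25 of the 46 carriers kept their sign under every alternative that tested them, Slc25a33 among them (0.80 to 1.18). Deviations of samples of the same replicate number had r = -0.154, 0.0588 and 0.0579 across genes. Samples of different numbers had r from -0.17 to 0.12. This check could not decide whether the numbers pair the mice. With the replicate block the difference of Slc25a33 was 1.02, and 0 carriers passed. The causes were not tested. With 3 mice per group, differences smaller than the printed intervals could not be resolved, and 10 carriers gave no signal above the negative control median on any array.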
